A study of Homo sapiens with 12 samples.

Results

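The CEACAM genes encode the carcinoembryonic antigen-related cell adhesion molecules, cell-surface glycoproteins of the immunoglobulin superfamily. The members described here are CEACAM1, CEACAM5, CEACAM6, CEACAM7 and CEACAM19, 5 of the 60664 genes in the deposited table, taken by gene symbol. They were selected with their levels in these libraries and their differences between miR-628-3p and control libraries in view. Their levels and differences are therefore given as a description, with no test, and the 95% intervals beside them show the spread between libraries only. The study measured polyadenylated RNA in 12 libraries of 2 human hepatocellular carcinoma lines, 3 libraries in each of 4 groups, to see what raising miR-628-3p does to gene expression. The labels give the genotype as miR-628-3p overexpression or, for the controls, WT. MHCC97H cells carried either pGreen-628, a vector for miR-628-3p, or an empty vector. Huh7 cells received either a miR-628-3p mimic, a synthetic form of the microRNA, or a control mimic. Libraries of polyadenylated RNA do not measure the mature microRNA itself. The sources used here give no further treatment, time after delivery or clonality. Delivery was bound to the line, so the 2 cannot be told apart when the lines are compared. Nothing in the labels says that the libraries of a group came from separate cultures, so the p-values measure only the spread between these libraries, which may be technical.

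CEACAM proteins bind one another and other CEACAM proteins on neighbouring cells. CEACAM1 crosses the membrane and, in its long form, carries inhibitory motifs that recruit the phosphatases encoded by PTPN6 and PTPN11. In hepatocytes it takes part in clearing insulin. CEACAM5, the carcinoembryonic antigen measured in blood as a tumour marker, CEACAM6 and CEACAM7 are held to the cell surface by a glycosylphosphatidylinositol (GPI) anchor and are known from epithelia, above all that of the colon, with CEACAM6 also found on granulocytes. CEACAM19 is a less studied transmembrane member.

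All 5 genes lie on the long arm of chromosome 19 (positions on GRCh38.p13, as the deposited table gives them). CEACAM7 (ENSG00000007306, chr19:41673303-41706976, minus strand), CEACAM5 (ENSG00000105388, chr19:41708585-41730433, plus strand) and CEACAM6 (ENSG00000086548, chr19:41750977-41772211, plus strand) are neighbours. Counted between lowest coordinates, whatever the strand, CEACAM1 (ENSG00000079385, chr19:42507304-42561234, minus strand) lies 799 kb from CEACAM5. CEACAM19 (ENSG00000186567, chr19:44662278-44684359, plus strand) lies 2954 kb from CEACAM5. All are annotated as protein-coding.

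The microRNA raised in the study is shown with its seed, bases 2 to 8, in capitals, because the seed is the stretch that pairs with target transcripts (RefSeq, GRCh38.p14, written 5′ to 3′).
miR-628-3p: uCUAGUAAgaguggcagucga
The matching site, TTACTAG, was in the longest annotated 3′ UTR of 0 of the 5 members, against 1346 of 19326 genes searched, or 6.96%. It was in no annotated transcript of the 5 members either. These letters were the only form searched.

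The promoters of the members are shown because CEACAM5, CEACAM6 and CEACAM7 are close copies of one another and differ in an E-box, the letters CACGTG, printed in capitals; this motif is read by the transcription factors USF1 and USF2. Each sequence runs from 250 bases before to 50 bases after the RefSeq start of the gene on GRCh38.p14, in the direction of the gene: chr19:41708376-41708675 for CEACAM5, chr19:41755280-41755579 for CEACAM6, chr19:42528432-42528731 (minus strand) for CEACAM1 and chr19:41688221-41688520 (minus strand) for CEACAM7.
CEACAM5: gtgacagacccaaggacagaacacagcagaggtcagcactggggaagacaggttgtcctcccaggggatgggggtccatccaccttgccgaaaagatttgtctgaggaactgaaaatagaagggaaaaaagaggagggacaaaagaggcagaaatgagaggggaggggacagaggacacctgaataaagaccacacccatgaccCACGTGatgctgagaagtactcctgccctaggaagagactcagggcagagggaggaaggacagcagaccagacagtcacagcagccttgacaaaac
CEACAM6: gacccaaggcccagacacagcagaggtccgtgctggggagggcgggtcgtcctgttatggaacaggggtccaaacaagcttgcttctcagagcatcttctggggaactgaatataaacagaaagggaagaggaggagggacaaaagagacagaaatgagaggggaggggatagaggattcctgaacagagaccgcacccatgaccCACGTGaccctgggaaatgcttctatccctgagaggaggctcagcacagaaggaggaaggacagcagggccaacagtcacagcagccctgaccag
CEACAM1: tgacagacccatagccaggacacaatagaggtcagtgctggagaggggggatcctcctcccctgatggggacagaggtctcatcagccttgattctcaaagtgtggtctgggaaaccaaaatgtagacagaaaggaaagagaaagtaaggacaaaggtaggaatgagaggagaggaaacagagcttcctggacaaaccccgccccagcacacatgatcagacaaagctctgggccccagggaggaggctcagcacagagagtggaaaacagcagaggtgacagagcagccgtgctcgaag
CEACAM7: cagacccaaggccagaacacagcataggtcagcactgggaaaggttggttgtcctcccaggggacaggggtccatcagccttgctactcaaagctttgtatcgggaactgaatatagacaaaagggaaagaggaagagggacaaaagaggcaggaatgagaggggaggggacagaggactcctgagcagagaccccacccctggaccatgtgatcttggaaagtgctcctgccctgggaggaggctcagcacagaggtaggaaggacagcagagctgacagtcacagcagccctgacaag
The table of promoters matched 4 of the 5 members, CEACAM19 being the other. For CEACAM1, CEACAM6 and CEACAM7 the RefSeq start lies inside the gene span given above, not at its outer end. CEACAM5 and CEACAM7 were identical at 81.4% of aligned positions, CEACAM6 and CEACAM7 at 80.5%, and CEACAM5 and CEACAM6 at 74.7%. CEACAM1 was further away, at 65.6% with CEACAM5, 68.2% with CEACAM6 and 71.2% with CEACAM7. The E-box, which reads the same on both strands, was present in CEACAM5 and CEACAM6, 46 and 45 bases before the start, and in 7.26% of the 35116 promoters in the table. A GC box, GGGCGG on either strand, was present in CEACAM1 and CEACAM6 and in 45.0% of all promoters. A match of letters does not show binding.

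The libraries held between 16472932 and 19578875 reads counted over genes. Values are FPKM, fragments scaled to exon length and to the library total, so levels of different genes can be compared per length. In every library the FPKM values gave back whole reads, and read numbers below come from there. Between libraries 2 and 3 of the MHCC97H miR-628-3p group the counts differed by a chi-square of 34.5 per degree of freedom across genes, against 1.93 to 3.50 between empty vector libraries, so the miR-628-3p vector libraries stood further apart than their controls. In Huh7 the log2 difference between mimic and control mimic followed the GC content of the gene (Spearman's rho −0.72 across genes, which are not independent), and in MHCC97H much less so (0.17). Of the hepatocyte-lineage markers, the MHCC97H libraries listed GPC3 at 0, and APOA1 averaged 0.479 ± 0.129 FPKM with the miR-628-3p vector and 0.320 ± 0.175 FPKM with the empty vector (SD, n = 3 each), although the labels give the line as hepatocellular carcinoma cells of the liver. GPC3 and APOA1 were thus absent or nearly so, and KRT20, an intestinal keratin, was high. Of the 11 hepatocyte-lineage markers, however, 9 averaged at least 1 FPKM with the miR-628-3p vector and 8 with the empty vector. The intestinal markers GPA33 and MUC2 were at or near 0. The identity of the line labelled MHCC97H is uncertain. It was not tested here, and MHCC97H below means the libraries with that label. The 11 markers summed to between 1900 and 2468 FPKM in MHCC97H miR-628-3p vector libraries and 2083 and 2199 FPKM in empty vector libraries, mostly KRT8 and KRT18, and to between 13623 and 14883 FPKM in Huh7 mimic libraries and 12873 and 13640 FPKM in control mimic libraries.

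CEACAM6 was the main CEACAM transcript of MHCC97H and was almost absent from Huh7. With the miR-628-3p vector its level was 508, 513 and 502 FPKM in replicates 1, 2 and 3, and with the empty vector 496, 476 and 484 FPKM. Every miR-628-3p vector library lay above every empty vector library, but the distance was small. The means were 507 ± 5.34 FPKM with the miR-628-3p vector and 485 ± 10.3 FPKM with the empty vector (SD, n = 3 each), a 1.05-fold ratio and a log2 difference of 0.06 (95% interval −0.06 to 0.19) on the log2(FPKM + 1) scale used throughout. At this level 99.4% of protein-coding genes lay below CEACAM6 in both groups. In Huh7 it had 1 read in mimic library 2 and 0 reads in the other 5 libraries.

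CEACAM5 was present in MHCC97H at a lower level than CEACAM6 and differed most between the groups. It stood at 9.80, 11.4 and 11.2 FPKM with the miR-628-3p vector and at 3.18, 3.39 and 3.80 FPKM with the empty vector, from 568 to 765 reads per library with the miR-628-3p vector and 190 to 243 with the empty vector. The groups did not overlap, the lowest miR-628-3p vector library lying far above the highest empty vector library. The means were 10.8 ± 0.862 FPKM with the miR-628-3p vector and 3.46 ± 0.318 FPKM with the empty vector (SD, n = 3 each), a 3.12-fold ratio and a log2 difference of 1.40 (95% interval 1.20 to 1.61). Leaving out any 1 library kept the log2 difference between 1.36 and 1.47. CEACAM5 had 0 reads in all 6 Huh7 libraries, so neither a level nor a difference was detectable there at this depth.

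CEACAM1 was clearly present in both lines. In MHCC97H it stood at 42.0, 47.0 and 44.7 FPKM with the miR-628-3p vector and at 33.3, 32.1 and 31.4 FPKM with the empty vector. All 3 miR-628-3p vector libraries were above all 3 empty vector libraries. The means were 44.6 ± 2.52 FPKM with the miR-628-3p vector and 32.3 ± 0.995 FPKM with the empty vector (SD, n = 3 each), a 1.38-fold ratio and a log2 difference of 0.45 (95% interval 0.30 to 0.60). In Huh7 it stood at 30.4, 31.2 and 31.8 FPKM with the mimic and at 32.0, 30.1 and 31.1 FPKM with the control mimic. These groups overlapped and their means were almost the same, 31.1 ± 0.725 FPKM with the mimic and 31.1 ± 0.927 FPKM with the control mimic (SD, n = 3 each), with a log2 difference of 0.00 (95% interval −0.11 to 0.11). The long and short forms of CEACAM1 cannot be told apart in a table of gene totals.

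CEACAM19 was weakly expressed in both lines. In MHCC97H it stood at 1.10, 0.944 and 1.18 FPKM with the miR-628-3p vector and at 1.09, 1.47 and 1.22 FPKM with the empty vector, from 36 to 43 reads with the miR-628-3p vector and 37 to 50 with the empty vector. In Huh7 it stood at 1.69, 1.57 and 1.68 FPKM with the mimic and at 1.58, 2.50 and 1.81 FPKM with the control mimic, from 54 to 65 reads with the mimic and 55 to 95 with the control mimic. The groups overlapped in both lines, and control mimic library 2 was the highest of all. The log2 difference was −0.12 in MHCC97H (95% interval −0.36 to 0.12) and −0.15 in Huh7 (95% interval −0.42 to 0.12). CEACAM7 had 0 reads in the 3 miR-628-3p vector libraries, against 1, 0 and 1 reads in the empty vector libraries, and 0 reads in the 3 mimic libraries, against 0, 0 and 1 reads in the control mimic libraries, too few for any comparison.

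**Figure D1:**
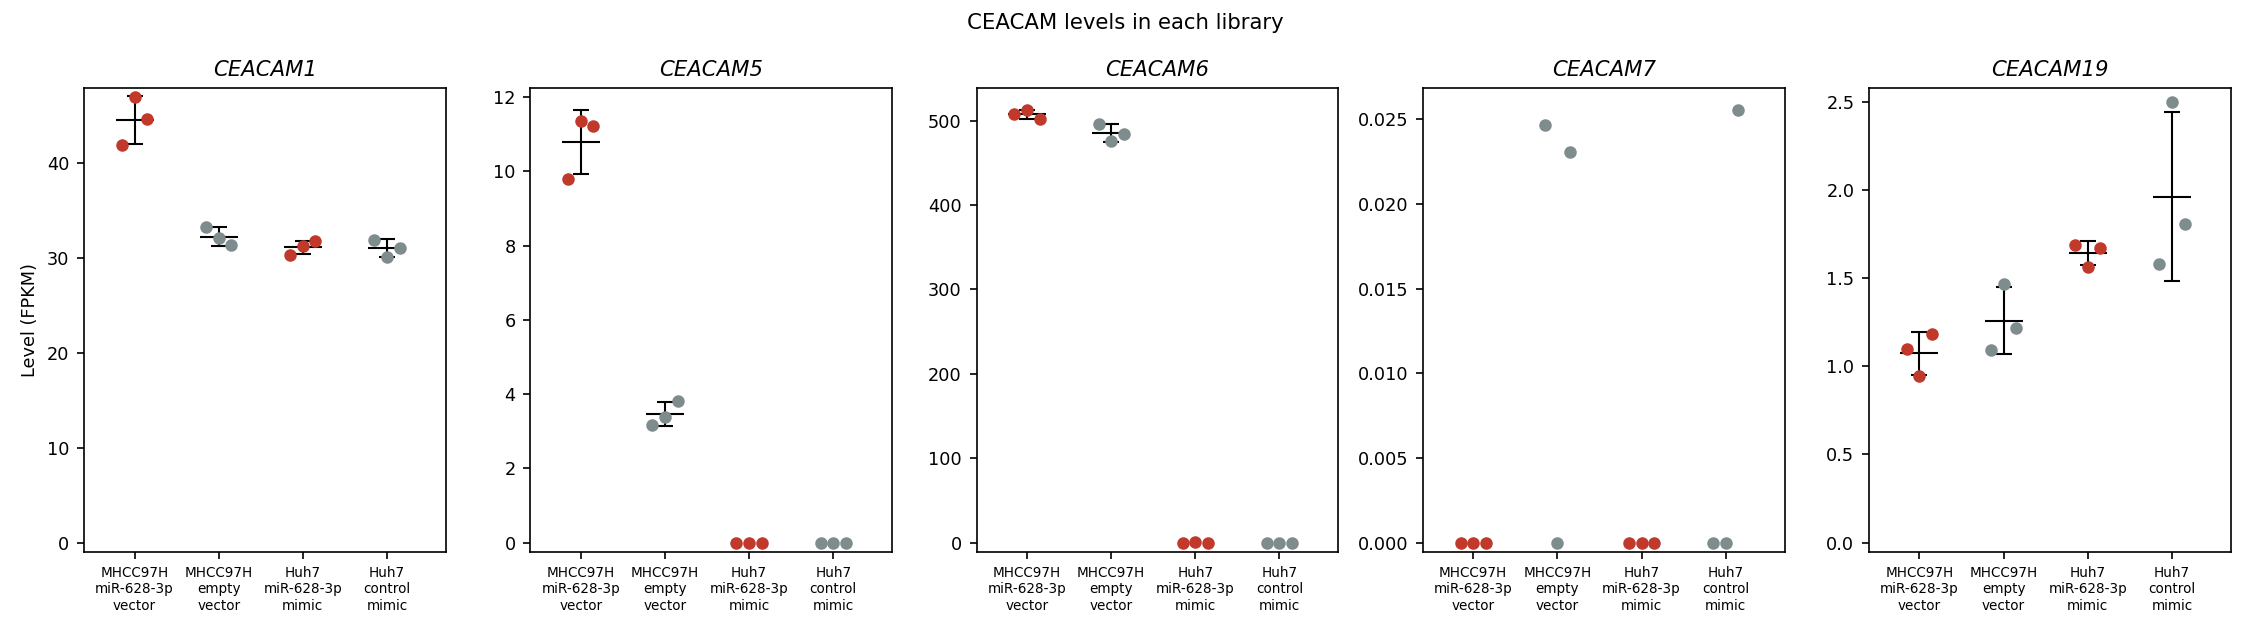
FPKM of each CEACAM member (1 panel each, vertical axis from 0, scales differ) in the 12 libraries; points are libraries in replicate order, and bars are the group mean with SD where the group mean is over 0.1 FPKM, with none drawn for CEACAM7. CEACAM5 and CEACAM6 had points above 0 almost only in MHCC97H, CEACAM1 lay at 30.1 to 33.3 FPKM in every group except the MHCC97H miR-628-3p vector group, and CEACAM7 had at most 1 read per library.

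The balance among the members therefore differed between the groups of MHCC97H. CEACAM6 was 51.8, 45.1 and 44.7 times CEACAM5 in FPKM with the miR-628-3p vector and 156, 140 and 127 times with the empty vector. CEACAM1 was 4.28, 4.14 and 3.98 times CEACAM5 with the miR-628-3p vector and 10.5, 9.49 and 8.25 times with the empty vector. Neither ratio overlapped between the groups. CEACAM6 made up 89.6% to 90.6% of the summed FPKM of the 5 members with the miR-628-3p vector and 92.8% to 93.0% with the empty vector, so the sum was ruled by CEACAM6 in every MHCC97H library. In Huh7 CEACAM1 made up 94.7% to 95.2% of the sum with the mimic and 92.3% to 95.3% with the control mimic, and CEACAM19 nearly all of the rest.

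Of the 5 members, 4 passed the filter of a mean of 1 FPKM in MHCC97H and 2, CEACAM1 and CEACAM19, passed it in Huh7. A gene counts as called where its limma p, Benjamini-Hochberg adjusted over all genes tested in the comparison, is under 0.05. In MHCC97H 2.32% of the 12670 genes tested were called higher and 3.05% lower, and in Huh7 6.75% of the 12508 genes tested were called higher and 14.4% lower. Groups that did not overlap, with the miR-628-3p vector higher, were seen for 3 members and for 12.2% of the genes tested in MHCC97H. Since the members were chosen from these differences, no call is given for them and nothing is read from their count.

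**Figure D2:**
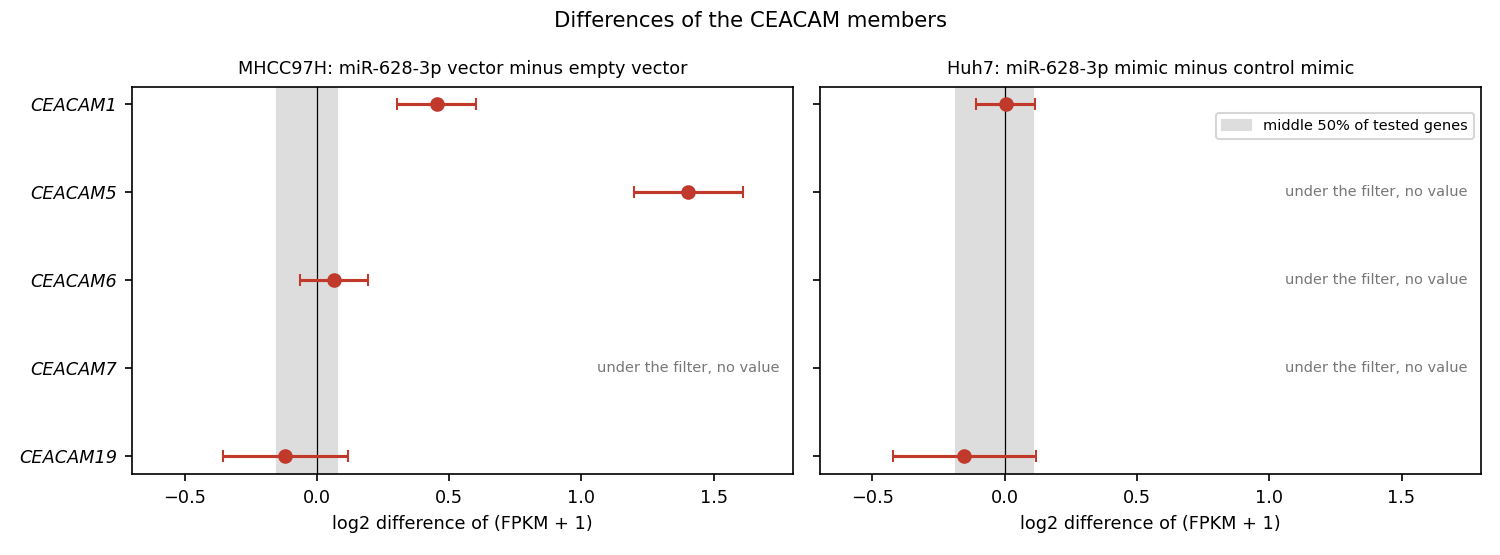
Log2 difference of (FPKM + 1) for each member, MHCC97H miR-628-3p vector minus empty vector at the left and Huh7 mimic minus control mimic at the right; points are estimates, bars 95% intervals, and the grey band holds the middle 50% of the genes tested. CEACAM5 (1.40) and CEACAM1 (0.45) lay outside the band in MHCC97H, and CEACAM1 lay at 0.00 in Huh7.

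Reads shared between genes touch some of these values. CEACAM1 lies within LIPE-AS1, a long noncoding RNA on the other strand, which averaged 0.751 ± 0.0404 FPKM with the miR-628-3p vector and 0.447 ± 0.142 FPKM with the empty vector (SD, n = 3 each), far below CEACAM1 itself. CEACAM19 lies within CEACAM16-AS1 on the other strand, which was above it in MHCC97H, with 3.53 ± 0.113 FPKM with the miR-628-3p vector and 4.21 ± 0.514 FPKM with the empty vector, and in Huh7, with 8.08 ± 0.725 FPKM in mimic libraries and 8.76 ± 0.203 FPKM in control mimic libraries (SD, n = 3 each). The start of CEACAM19 also overlaps the end of PVR on the same strand. The sources used here do not say whether the authors counted by strand, so the small values of CEACAM19 are uncertain. The readthrough gene from CEACAM5 into CEACAM6 (ENSG00000267881) had 0 reads in all 12 libraries. It overlaps both genes on the same strand, and the sources used here do not say how reads that fit several genes were counted. Its 0 therefore does not show that readthrough was absent. No stretch of 150 bases, the read length, was shared between a transcript of a member and one of the other 35 CEACAM and pregnancy-specific glycoprotein genes and pseudogenes searched, while stretches of 40 bases were shared at 7.47% of positions in CEACAM6, 5.35% in CEACAM5 and 3.97% in CEACAM1. The other 7 protein-coding CEACAM genes were nearly silent. CEACAM4, CEACAM8, CEACAM18 and CEACAM21 had 0 reads in every library, and CEACAM3, CEACAM16 and CEACAM20 had at most 3 reads in any. Of the list of 17 other CEACAM and pregnancy-specific glycoprotein genes, 0 passed the expression filter in either line.

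Between the control groups of the lines, CEACAM6 and CEACAM5 had far higher levels in MHCC97H, CEACAM1 had nearly the same level and CEACAM19 had a lower one. These are the same control libraries as above, whose levels were in view when the members were chosen, so the values are again a description. CEACAM6 stood at 485 ± 10.3 FPKM in MHCC97H empty vector libraries and at 0 in Huh7 control mimic libraries, at least 7403-fold higher when Huh7 is set to a floor of 3 reads per library. CEACAM5 stood at 3.46 ± 0.318 FPKM in MHCC97H empty vector libraries and at 0 in Huh7 control mimic libraries, at least 71.2-fold higher against the same floor. CEACAM1 stood at 32.3 ± 0.995 FPKM in MHCC97H empty vector libraries and 31.1 ± 0.927 FPKM in Huh7 control mimic libraries, with a log2 difference of 0.05 (95% interval −0.04 to 0.15). CEACAM19 stood at 1.26 ± 0.191 FPKM in MHCC97H empty vector libraries and 1.96 ± 0.479 FPKM in Huh7 control mimic libraries, with a log2 difference of −0.38 (95% interval −0.68 to −0.09). It rests on 37 to 50 reads per empty vector library and 55 to 95 per control mimic library, with control mimic library 2 the highest. The overlapping CEACAM16-AS1 was also lower in MHCC97H, at 4.21 ± 0.514 FPKM against 8.76 ± 0.203 FPKM in these control groups. Its part in the CEACAM19 value was not tested. In bulk RNA, fewer cells of a type and less RNA per cell cannot be told apart.

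Markers of intestinal epithelium, the tissue from which CEACAM5, CEACAM6 and CEACAM7 are best known, differed between the lines in no single direction. KRT20, LGALS4 and CDH17 were higher in the MHCC97H control group and VIL1 was lower. Among all 13191 genes tested between the control groups, 42.3% were called higher in MHCC97H and 42.2% lower. KRT20 averaged 901 ± 12.5 FPKM with the miR-628-3p vector and 1053 ± 20.0 FPKM with the empty vector, against 0.0201 ± 0.0175 FPKM in Huh7 mimic libraries and 0.0218 ± 0.0189 FPKM in control mimic libraries (SD, n = 3 each). LGALS4, a gut lectin, averaged 852 ± 122 FPKM with the miR-628-3p vector and 987 ± 41.2 FPKM with the empty vector, and under 1 FPKM in Huh7. CDH17, an intestinal cadherin, averaged 79.1 ± 0.601 FPKM with the empty vector and 5.29 ± 0.164 FPKM in Huh7 control mimic libraries. Between these control groups the log2 difference was 10.0 for KRT20, 9.57 for LGALS4 and 3.67 for CDH17. VIL1, which encodes villin of the brush border, went the other way, at 7.93 ± 0.409 FPKM in MHCC97H empty vector libraries and 55.3 ± 3.04 FPKM in Huh7 control mimic libraries (SD, n = 3 each, log2 difference −2.66, limma, adjusted p = 8.66e-09). CDX2 was near the same level, at 1.86 ± 0.205 FPKM in MHCC97H empty vector libraries and 1.82 ± 0.223 FPKM in Huh7 control mimic libraries. GPA33 and MUC2, further defining markers, were at or near 0 in all 4 groups. Of the 7 intestinal markers, 5 were tested in MHCC97H. CDH17 rose to 119 ± 11.7 FPKM with the miR-628-3p vector, against 79.1 ± 0.601 FPKM with the empty vector (SD, n = 3 each, log2 difference 0.58, limma, adjusted p = 0.00853), a call lost when miR-628-3p vector library 1 or any 1 empty vector library was left out. CDX2, the intestinal homeobox factor described below, also rose. The summed level of the list did not follow them, at 1785 to 1981 FPKM with the miR-628-3p vector and 2100 to 2179 FPKM with the empty vector. In Huh7 the sum was 56.6 to 60.2 FPKM with the mimic and 60.2 to 66.1 FPKM with the control mimic, mostly VIL1. CDH17 was called there too, at 6.76 ± 0.167 FPKM with the mimic and 5.29 ± 0.164 FPKM with the control mimic (SD, n = 3 each, log2 difference 0.30, limma, adjusted p = 0.0277). That Huh7 call was lost without the expression filter and after correction of each library for GC content and gene length. It was also lost when any 1 mimic library or control mimic library 2 was left out. The part of these genes in the CEACAM values was not tested. The granulocyte markers CEACAM8, MPO and S100A8 were at 0 in all libraries, and 0 of the 8 granulocyte markers reached 1 FPKM in MHCC97H. In Huh7 2 of them did: S100A9 averaged 34.0 ± 5.18 FPKM with the mimic and 41.0 ± 2.35 FPKM with the control mimic, and CSF3R averaged 7.28 ± 0.241 FPKM with the mimic and 8.54 ± 0.516 FPKM with the control mimic (SD, n = 3 each). In MHCC97H 0 of the 5 leukocyte markers reached 1 FPKM. Of the 5 fibroblast markers only LUM did in MHCC97H, at 2.68 ± 0.343 FPKM with the miR-628-3p vector and 1.82 ± 0.213 FPKM with the empty vector. In both Huh7 groups the leukocyte marker CD14 and the fibroblast markers COL1A2 and LUM reached 1 FPKM.

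Markers of the hepatocyte lineage also differed between the MHCC97H groups, where 8 of the 11 were tested, 1 called higher and 1 lower. ALB, which encodes serum albumin, rose to 39.8 ± 2.66 FPKM with the miR-628-3p vector, against 13.9 ± 0.571 FPKM with the empty vector (SD, n = 3 each, log2 difference 1.45, limma, adjusted p = 0.000185), and that call held under all 15 alternatives. FGB, a fibrinogen chain, fell to 2.12 ± 0.0678 FPKM with the miR-628-3p vector, against 3.86 ± 0.278 FPKM with the empty vector (SD, n = 3 each, log2 difference −0.64, limma, adjusted p = 0.00634), a call lost without empty vector library 3. In Huh7 all 11 were tested, 2 called higher (APOB and FGB) and 2 lower (APOA1 and KRT18), beside 6.75% and 14.4% of all genes tested there. Each of these lost its Huh7 call without the expression filter and after correction of each library for GC content and gene length. Leaving out any 1 mimic library also ended each call. The part of these genes in the CEACAM values was not tested.

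Lists of genes around the CEACAM proteins were counted in both comparisons, beside a median log2 difference over all genes tested of −0.04 in MHCC97H and −0.05 in Huh7. In MHCC97H, 1 of 21 tested genes for binding partners and signalling was called higher and 0 lower, with a median log2 difference of 0.06. The gene was ITGA5, the fibronectin receptor subunit, at 19.9 ± 2.71 FPKM with the miR-628-3p vector and 14.1 ± 1.04 FPKM with the empty vector (SD, n = 3 each, log2 difference 0.46, limma, adjusted p = 0.0485). Its call was lost without the expression filter, without the variance trend, and when any library but miR-628-3p vector library 3 was left out. The phosphatases that CEACAM1 recruits were not called: PTPN6 averaged 11.9 ± 1.40 FPKM with the miR-628-3p vector and 10.98 ± 0.112 FPKM with the empty vector, and PTPN11 averaged 51.9 ± 9.65 FPKM with the miR-628-3p vector and 54.0 ± 1.19 FPKM with the empty vector. In Huh7, 2 of the 21 tested rose and 3 fell, with a median of −0.01. ITGB1, an integrin chain, rose to 272 ± 12.7 FPKM in mimic libraries, against 231 ± 6.73 FPKM in control mimic libraries (SD, n = 3 each, log2 difference 0.23, limma, adjusted p = 0.0313). PTPN11 rose to 71.0 ± 2.85 FPKM in mimic libraries, against 61.9 ± 2.74 FPKM in control mimic libraries (log2 difference 0.19, limma, adjusted p = 0.0417). ILK, a kinase at integrins, and CALM3, a calmodulin gene whose protein binds the CEACAM1 tail, fell, with log2 differences of −0.26 and −0.22.

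Among the transcription and splicing factors known to act on CEACAM genes, 1 of 18 tested was called higher and 0 lower in MHCC97H, with a median log2 difference of 0.04. CDX2 rose to 2.84 ± 0.282 FPKM with the miR-628-3p vector, against 1.86 ± 0.205 FPKM with the empty vector (SD, n = 3 each, log2 difference 0.43, limma, adjusted p = 0.0473). That call was lost without the expression filter, with the replicate number as a block and when any library but miR-628-3p vector library 3 was left out. USF1 and USF2, which read the E-box, were not called, USF1 averaging 21.5 ± 2.58 FPKM with the miR-628-3p vector and 22.7 ± 0.440 FPKM with the empty vector, and USF2 averaging 56.7 ± 8.70 FPKM with the miR-628-3p vector and 60.0 ± 2.27 FPKM with the empty vector. In Huh7, 0 of 18 were called higher and 6 lower, with a median of −0.12. USF2 fell to 20.7 ± 0.491 FPKM in mimic libraries, against 24.9 ± 0.911 FPKM in control mimic libraries (SD, n = 3 each, log2 difference −0.25, limma, adjusted p = 0.0282). The splicing regulators PTBP1 and HNRNPL, which act on the exon that separates the CEACAM1 forms, fell by 0.29 and 0.27 on the log2 scale, and RELA, an NF-kappaB subunit, fell by 0.31.

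CEACAM5, CEACAM6 and CEACAM7 need a GPI anchor. Of the genes that make and attach it, 0 of 28 tested were called in MHCC97H, with a median log2 difference of −0.03. In Huh7, 1 of 27 was called higher and 5 lower, with a median of −0.06. PIGA, part of the enzyme for the first step, rose to 22.9 ± 1.22 FPKM in mimic libraries, against 17.4 ± 1.64 FPKM in control mimic libraries (SD, n = 3 each, log2 difference 0.38, limma, adjusted p = 0.028). PIGT and PIGS, of the enzyme that attaches the anchor, and DPM3, of the enzyme that makes its mannose donor, fell by 0.27, 0.26 and 0.46 on the log2 scale. Of other GPI-anchored surface proteins, 2 of 22 were called higher and 1 lower in MHCC97H, with a median of 0.03, and 0 of 15 in Huh7, with a median of −0.01. EFNA1, an ephrin, rose to 35.1 ± 7.69 FPKM with the miR-628-3p vector, against 19.7 ± 0.441 FPKM with the empty vector (SD, n = 3 each, log2 difference 0.78, limma, adjusted p = 0.0236). CD24, a mucin-like adhesion protein, rose to 253 ± 4.76 FPKM with the miR-628-3p vector, against 199 ± 6.68 FPKM with the empty vector (log2 difference 0.34, limma, adjusted p = 0.0172). CD55, a complement inhibitor, fell to 32.6 ± 2.18 FPKM with the miR-628-3p vector, against 43.2 ± 1.06 FPKM with the empty vector (log2 difference −0.40, limma, adjusted p = 0.0185). These 3 calls were lost when miR-628-3p vector library 1 or any 1 empty vector library was left out, and that of EFNA1 also without the expression filter.

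Of other immunoglobulin adhesion molecules, 3 of 21 tested were called higher and 0 lower in MHCC97H, with a median log2 difference of 0.08. PECAM1, best known from endothelium, stood at 7.63, 7.11 and 7.32 FPKM with the miR-628-3p vector and at 4.60, 4.24 and 4.16 FPKM with the empty vector, groups that did not overlap (log2 difference 0.65, limma, adjusted p = 0.0039). That call held under all 15 alternatives. Of the other endothelial markers, KDR averaged 1.67 ± 0.0834 FPKM with the miR-628-3p vector and 1.62 ± 0.206 FPKM with the empty vector and VWF and CDH5 lay under 1 FPKM, while the 4 markers summed to 8.999 to 9.51 FPKM with the miR-628-3p vector and 5.83 to 6.59 FPKM with the empty vector. Their part in the value of PECAM1 was not tested. NECTIN1, a nectin of adherens junctions, rose to 5.33 ± 0.415 FPKM with the miR-628-3p vector, against 3.11 ± 0.270 FPKM with the empty vector (SD, n = 3 each, log2 difference 0.63, limma, adjusted p = 0.00943). MPZL2, an epithelial adhesion protein, rose to 2.07 ± 0.453 FPKM with the miR-628-3p vector, against 0.630 ± 0.247 FPKM with the empty vector (log2 difference 0.91, limma, adjusted p = 0.0175). Both calls were lost without miR-628-3p vector library 1 or vector library 3, NECTIN1 also without vector library 1, and MPZL2 also without vector library 2 or the expression filter. In Huh7, 0 of 22 were called higher and 5 lower, with a median of −0.14, among them NECTIN2, BCAM, BSG and ICAM3, with log2 differences of −0.34, −0.38, −0.29 and −0.32.

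**Figure D3:**
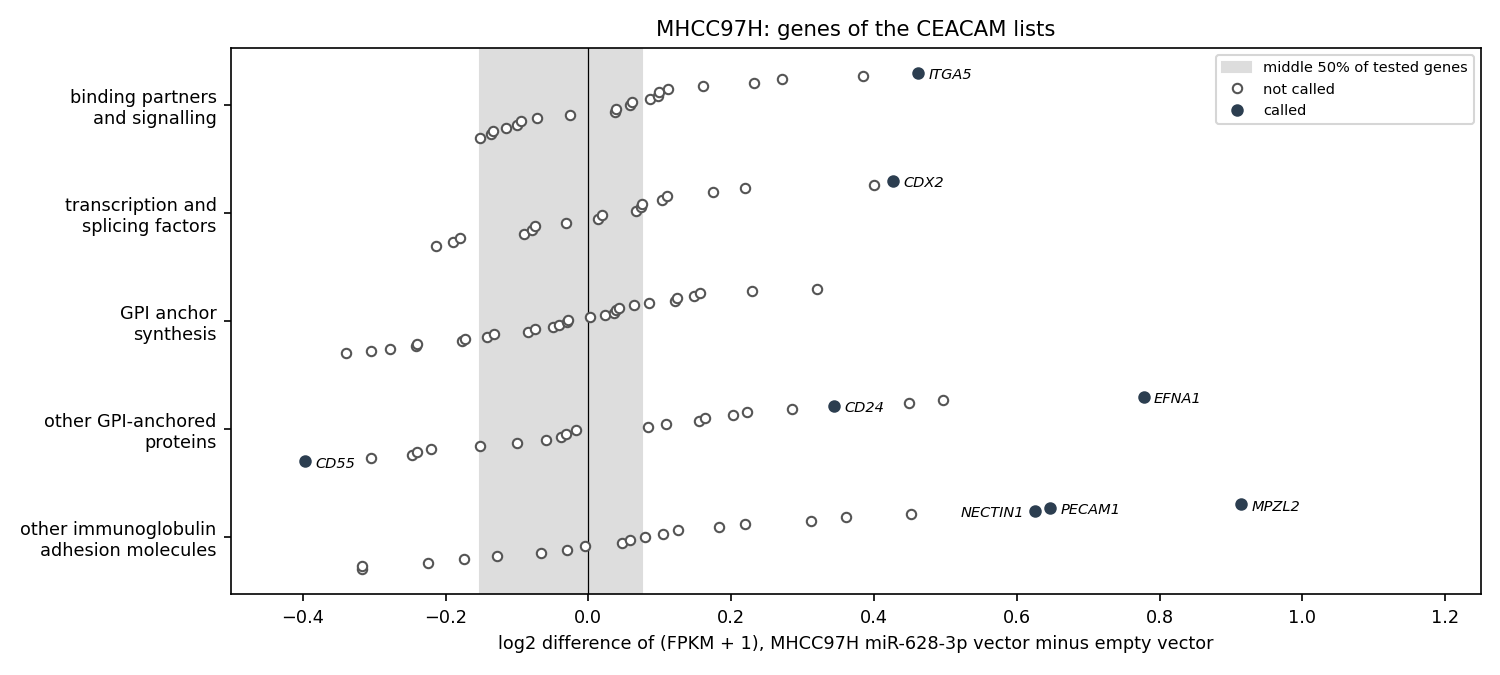
Log2 difference of (FPKM + 1), MHCC97H miR-628-3p vector minus empty vector, for the tested genes of the 5 lists, ordered by value within each list; filled points are called, open points are not, and the grey band holds the middle 50% of the genes tested. The called genes were 1, 1, 0, 3 and 3 from the top list to the bottom one, with PECAM1 at 0.65, EFNA1 at 0.78 and MPZL2 at 0.91.

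The Huh7 calls in these lists need their setting. Every list gene named above for Huh7 lost its call after correction of each library for GC content and gene length, without the expression filter, when any 1 mimic library was left out and when control mimic library 2 was left out. After the correction 1 gene in the whole table was called. The difference between the lines was tested as an interaction over all 12 libraries, in which 12.9% of 13171 genes were called in either direction. It was called with a higher value in MHCC97H for 3 of 21 partners, 7 of 18 transcription and splicing factors, 3 of 28 anchor synthesis genes, 5 of 21 GPI-anchored proteins and 6 of 24 immunoglobulin adhesion molecules, and with a lower value for 0, 0, 2, 2 and 0 of them.

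Within 500 kb of a member lie 83 other protein-coding genes. In MHCC97H 45 were tested, 2 called higher and 2 lower, with a median log2 difference of −0.04, the same as over all genes. CD79A, a chain of the B-cell receptor complex, 105 kb from CEACAM6, stood at 6.10, 7.05 and 5.31 FPKM with the miR-628-3p vector and at 18.3, 20.8 and 19.1 FPKM with the empty vector. The groups were far apart and the direction was opposite to that of CEACAM5 (log2 difference −1.52, limma, adjusted p = 0.00069). LIPE, hormone-sensitive lipase, 79.9 kb from CEACAM1, stood at 2.55, 2.66 and 2.45 FPKM with the miR-628-3p vector and at 0.513, 0.633 and 0.436 FPKM with the empty vector, also without overlap (log2 difference 1.22, limma, adjusted p = 0.0011). LIPE and CXCL17 too lie within LIPE-AS1, so their reads and its reads cannot be told apart if counting ignored the strand. The calls for CD79A and LIPE held under all 15 alternatives. APOE, an apolipoprotein 221 kb from CEACAM19, rose to 10.9 ± 1.12 FPKM with the miR-628-3p vector, against 7.89 ± 0.209 FPKM with the empty vector (SD, n = 3 each, log2 difference 0.42, limma, adjusted p = 0.0334). CXCL17, a mucosal chemokine 64.4 kb from CEACAM1, fell to 1.13 ± 0.0879 FPKM with the miR-628-3p vector, against 2.42 ± 0.688 FPKM with the empty vector (log2 difference −0.66, limma, adjusted p = 0.0413). The calls for APOE and CXCL17 were lost without the expression filter, when miR-628-3p vector library 1 was left out and when any 1 empty vector library was left out, and for CXCL17 also without miR-628-3p vector library 2 and with the replicate number as a block.

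In Huh7, 37 neighbours were tested, 0 called higher and 18 lower, with a median log2 difference of −0.26 beside −0.05 over all genes. EXOSC5, an RNA exosome subunit, fell to 11.2 ± 0.311 FPKM in mimic libraries, against 15.0 ± 0.564 FPKM in control mimic libraries (SD, n = 3 each, log2 difference −0.40, limma, adjusted p = 0.0272). TGFB1, a growth factor, fell to 9.35 ± 0.541 FPKM in mimic libraries, against 12.2 ± 0.785 FPKM in control mimic libraries (log2 difference −0.35, limma, adjusted p = 0.0279). Both calls were lost under the settings that ended the Huh7 calls of the lists, and after the GC and length correction 0 of the neighbours were called lower. The difference between the lines was called with a higher value in MHCC97H for 9 of 42 neighbours and a lower one for 2.

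**Figure D4:**
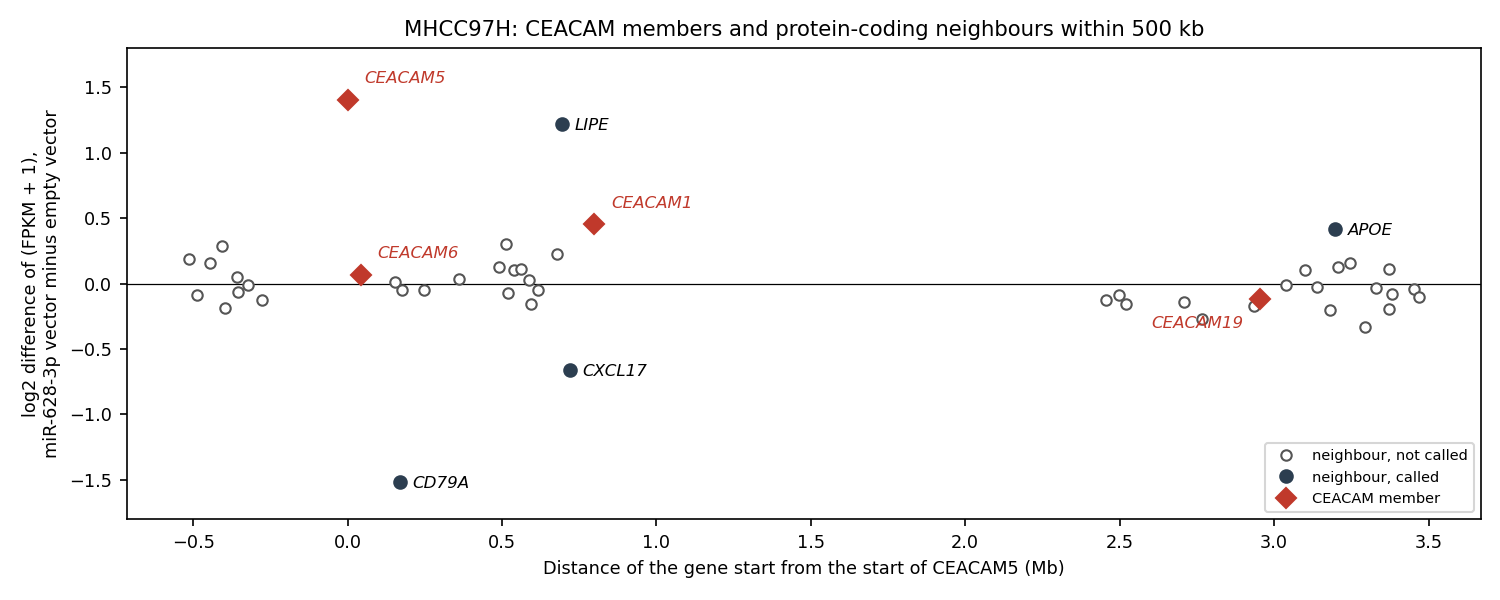
Log2 difference of (FPKM + 1), MHCC97H miR-628-3p vector minus empty vector, for the 4 tested members (diamonds) and the 45 tested protein-coding neighbours within 500 kb of a member (circles, filled where called). The horizontal axis is the distance of the lowest coordinate of the gene from that of CEACAM5 in Mb, labelled as gene start whatever the strand. CD79A (−1.52) and LIPE (1.22) stood furthest from 0 among the neighbours, and most others lay close to 0.

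The genes most like each member were taken as those with the highest Pearson r to it on log2(FPKM + 1) over the 12 libraries, after subtracting the mean of each line. The r is a description with no p. For CEACAM5 and CEACAM1 it mostly follows the difference between the MHCC97H groups that these genes share with the member. For CEACAM6 that difference was small, at 0.06 on the log2 scale, and for CEACAM19 the MHCC97H groups overlapped. For CEACAM5 they were COL17A1, a hemidesmosome collagen (r = 0.994), FCGBP, a mucus protein (0.991), and TMPRSS2, an epithelial serine protease (0.991). COL17A1 averaged 3.34 ± 0.0785 FPKM with the miR-628-3p vector and 1.34 ± 0.0269 FPKM with the empty vector, FCGBP 6.24 ± 0.211 FPKM with the miR-628-3p vector and 3.03 ± 0.177 FPKM with the empty vector, and TMPRSS2 12.97 ± 0.0985 FPKM with the miR-628-3p vector and 8.85 ± 0.0756 FPKM with the empty vector (SD, n = 3 each). All 3 averaged under 0.1 FPKM in Huh7, as CEACAM5 was at 0. For CEACAM1 they were CCDC80 (0.989), PTHLH, the parathyroid hormone-like hormone (0.988), and IGFBP5, an insulin-like growth factor binding protein (0.984), among genes expressed in MHCC97H. Among genes expressed in Huh7 they were PPP1R3C, a glycogen-targeting phosphatase subunit (0.979), NDRG1, a stress-response gene (0.970), and CDH1, which encodes E-cadherin (0.970). CDH1 averaged 9.45 ± 0.183 FPKM with the miR-628-3p vector and 3.22 ± 0.0731 FPKM with the empty vector, and 20.6 ± 1.97 FPKM in mimic and 21.5 ± 0.233 FPKM in control mimic libraries of Huh7 (SD, n = 3 each). NDRG1 averaged 330 ± 51.5 FPKM with the miR-628-3p vector and 121 ± 10.1 FPKM with the empty vector, and 74.5 ± 2.70 FPKM in mimic and 85.4 ± 5.09 FPKM in control mimic libraries of Huh7. For CEACAM6 the values were lower, with SERPINE2, a protease inhibitor, at 0.923, and for CEACAM19 lower still, with TEDC1, a centriole protein, at 0.902.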

How the data were processed

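The 12 libraries were grouped by their titles. The authors deposited one table of FPKM values (fragments scaled to exon length and to the total counted in the library) with the exon length of each gene, on GRCh38.p13 per the file headers. HISAT2, HISAT and HTSeq with GRCh38 and hg38 are named in the submitters' processing notes, with no versions. The labels describe strand-marked, paired-end libraries, but the sources used here do not say if the counting went by strand.

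Each comparison was fitted on log2(FPKM + 1) in R 4.3.3 by limma 3.58.1, with eBayes and a mean-variance trend. Genes with a mean of at least 1 FPKM over the libraries fitted entered, and p-values were adjusted by Benjamini-Hochberg over all of them. Adding 1 shrinks the differences of weak genes. FPKM times exon length was a whole multiple of 1 read within 0.01 for 100% of values, which gave read numbers; floors of 3 reads cover counting error only. Python 3.11.15, numpy 2.4.6, pandas 2.3.3, scipy 1.17.1, Biopython 1.88 and matplotlib 3.10.9 did the rest. Promoter and microRNA sequences are from RefSeq, and seed sites were searched in transcripts of GENCODE release 29.

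The members, gene lists and marker lists were chosen with earlier results of these data known. Named genes are the members, up to 4 called genes with the smallest p per list and comparison, up to 4 called neighbours within 500 kb, and the 3 genes with the highest r to a member. PTPN6, PTPN11, USF1 and USF2 are named beside that rule for what they do to CEACAM genes, after their values were seen, as are the marker genes. Alternatives changed the pseudocount, the filter, the scaling, the variance model, the libraries fitted, a replicate block, voom on whole reads and a correction for GC content and length, and left out each library in turn.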

Additional observations from a re-analysis of the deposited data

Results flagged for a closer look

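For 20 of the genes named in the lists, the difference between miR-628-3p and control libraries was itself different between the lines (limma interaction over all 12 libraries, adjusted p from 5.76e-05 to 0.0378). Each value below is the log2 difference in MHCC97H minus that in Huh7. These genes were named because they were called in Huh7 or MHCC97H, and the same libraries enter the interaction. That choice favours a difference between the lines, so these p-values are a description and no separate support. Genes named for a call in Huh7 lost that call after the GC and length correction. No cause was tested. Among binding partners and signalling genes it was 0.69 for ITGA5 and 0.49 for CALM3. Among transcription and splicing factors it was 0.54 for CDX2, 0.40 for PTBP1 and 0.35 for HNRNPL. Among anchor synthesis genes it was 0.49 for PIGS, 0.42 for PIGT and −0.62 for PIGA. Among other GPI-anchored proteins it was 0.94 for EFNA1, 0.35 for CD24 and −0.37 for CD55. Among other immunoglobulin adhesion molecules it was 0.81 for NECTIN1, 0.81 for MPZL2, 0.74 for BSG, 0.59 for PECAM1 and 0.48 for BCAM. Among neighbours it was 0.67 for APOE, 0.64 for TGFB1, 0.38 for EXOSC5 and −1.52 for CD79A. CD79A was near 0 in Huh7, at 0.0356 ± 0.0617 FPKM in mimic and 0.0331 ± 0.0288 FPKM in control mimic libraries (SD, n = 3 each), so its value is that of MHCC97H alone.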

How the results depend on the processing

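Depth limits CEACAM19, with 36 to 95 reads per library, and CEACAM7, with at most 1. The log2 difference in MHCC97H stayed at 1.36 to 1.64 for CEACAM5, 0.41 to 0.49 for CEACAM1, 0.05 to 0.11 for CEACAM6 and −0.22 to −0.06 for CEACAM19 over 15 alternatives each. In Huh7 it stayed at −0.02 to 0.05 for CEACAM1 and −0.25 to 0.01 for CEACAM19. The largest value for CEACAM5 came from voom on whole reads, which adds less to low values.

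Genes called in Huh7, 2642 as reported, were 7 without the expression filter, 1694 without the variance trend, 1 after the GC and length correction and 866 in the joint fit of 12 libraries. Leaving out 1 library gave 0 to 1661. Genes called in MHCC97H, 680 as reported, were 326 without the filter, 1981 after the GC and length correction and 1672 in the joint fit, and 142 to 1604 with 1 library left out. The difference between the lines, 1694 genes as reported, gave 967 without the filter and 637 to 4670 with 1 library left out. The causes were not tested. The contrast of the control groups, 11142 genes, stayed within 1.5-fold, at 10730 to 11225 with 1 library left out. Scaling moved the split of calls: in Huh7, 844 higher and 1798 lower as reported became 1150 and 1132 with median rescaling and 1352 and 1394 with quantile normalization, and in MHCC97H 294 and 386 became 386 and 323, and 417 and 324. Of 420 alternative counts over 28 list counts, 272 stayed within 1.5-fold.

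With a replicate block on the replicate number, 1187 genes were called in Huh7, 495 in MHCC97H, 11001 between the control groups and 1106 for the difference between the lines. Same-numbered libraries correlated in their deviations at −0.01, −0.08 and 0.04 in Huh7 and −0.09, 0.30 and 0.13 in MHCC97H, and not every library correlated best with its own number, so the numbers were not taken to pair the libraries.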
